A study of Mus musculus with 11 samples.

Results

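The GIMAP genes (GTPases of the immunity-associated protein family) were followed in RNA-seq libraries of mouse splenic B cells sorted on day 10 after immunization with sheep red blood cells. The members were Gimap1, Gimap3, Gimap4, Gimap5, Gimap6, Gimap7, Gimap8 and Gimap9, looked up by the Ensembl identifier of each symbol. All 8 were found among the 48795 genes of the table, and all 8 passed the filter on low values in every comparison. The data comprised 11 libraries from 8 female mice of 8 to 12 weeks on a C57BL/6 background, each library being 1 cell population of 1 mouse. Light zone (LZ) germinal center B cells came from 4 Myc WT mice (mice 1 to 4) and from 4 Myc V394D mice (mice 5 to 8, called Myc VD), which carry the substitution in the endogenous Myc gene and make a MYC protein that has lost its binding to MIZ1. They were sorted as B220+ Fas+ cells negative for CD138, IgD and CD38, with CD86High and CXCR4Low staining. Memory B cells (MBCs) came from 3 of the Myc WT mice (mice 1, 3 and 4) and were B220+ CD38+ CD273+ cells negative for CD138 and IgD. The names of mice 1 to 3, of mouse 4 and of the Myc VD mice start with 3 different codes, whose meaning the labels do not give, and effects of genotype and of what the codes stand for cannot be told apart here.

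GIMAP proteins are GTP-binding proteins made mainly by lymphocytes, where several of them sit on internal membranes and affect how long resting T and B cells survive. Their genes lie side by side in vertebrate genomes. Gimap5 is the best known, because animals that lack it lose T cells, and loss of Gimap1 depletes mature B and T cells. The germinal center is the structure in which activated B cells divide and are selected in the LZ, and MBCs are resting cells that persist afterwards.

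The 8 genes occupied 124 kb of chromosome 6 (chr6:48647234-48770851, GRCm38), 6 on the plus strand and 2, Gimap6 and Gimap3, on the minus strand. From the low to the high coordinate the order was Gimap8, Gimap9, Gimap4, Gimap6, Gimap7, Gimap1, Gimap5 and Gimap3. Gimap4 spanned chr6:48684549-48692060, Gimap3 chr6:48764464-48770851 and Gimap9 chr6:48676129-48679114. Coding lengths in the GENCODE M21 annotation ranged from 873 bases (Gimap9) to 984 bases (Gimap4), except for Gimap8, at 2064 bases, which is the member known for carrying several GTPase domains in a row. The coding sequence was read from 1 exon for Gimap7 and Gimap9 and from 5 exons for Gimap8.

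The upstream sequences of 3 members are shown because these members stood at the extremes of the data described here. Gimap3 had the largest difference between MBCs and LZ B cells, Gimap4 had the highest level in MBCs and Gimap9 was the member that was not higher in MBCs than in Myc WT LZ B cells. Each run is the 250 bases before the RefSeq transcription start (GRCm38.p6), 5′ to 3′ on the strand of the gene, in lower case throughout because none of the motifs searched was found.
Gimap3, chr6:48770852-48771101, minus strand: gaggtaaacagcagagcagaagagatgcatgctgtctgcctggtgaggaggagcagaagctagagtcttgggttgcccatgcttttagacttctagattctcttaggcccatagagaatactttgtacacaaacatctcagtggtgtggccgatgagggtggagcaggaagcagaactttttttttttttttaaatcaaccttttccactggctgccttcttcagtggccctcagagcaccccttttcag
Gimap4, chr6:48684328-48684577, plus strand: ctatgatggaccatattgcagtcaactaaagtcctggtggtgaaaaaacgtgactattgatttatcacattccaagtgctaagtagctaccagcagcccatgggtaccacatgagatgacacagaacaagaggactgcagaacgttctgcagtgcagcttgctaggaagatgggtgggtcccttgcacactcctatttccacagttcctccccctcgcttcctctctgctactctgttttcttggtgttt
Gimap9, chr6:48675885-48676134, plus strand: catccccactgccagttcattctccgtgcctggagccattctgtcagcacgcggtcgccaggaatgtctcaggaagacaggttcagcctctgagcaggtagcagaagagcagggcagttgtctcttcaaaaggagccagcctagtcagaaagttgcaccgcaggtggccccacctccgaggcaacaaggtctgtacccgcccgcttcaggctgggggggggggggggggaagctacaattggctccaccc
RefSeq promoter windows were matched for all 8 members, with 9 windows in all since Gimap8 had 2 starts. The motifs were searched on both strands in 250 bases before and 50 bases after the start, and none of them contains another. CACGTG, the E-box letters bound by MYC with MAX, were in 0 of 9 member windows and in 7.15% of all 32851 windows. ATCGAT, letters found in MIZ1-bound sites, were in 0 of 9 and in 0.925% of all windows. CCGGAAG, an ETS-type site, was in 0 of 9 and in 8.86% of all windows. The GC content of the upstream bases ran from 43.6% (Gimap6) to 61.2% (Gimap9) in the members, with a median of 52.4% over all windows.

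Gimap3 and Gimap5 are near-identical relatives, and a stretch in which their transcripts cannot be told apart is shown because it bears on how reads are shared between them. Their coding sequences were identical at 92.2% of 892 aligned bases. The longest identical coding run was 140 bases, shown with 40 bases on each side, and capitals mark the 4 positions that differ.
Gimap3, chr6:48765641-48765860, minus strand: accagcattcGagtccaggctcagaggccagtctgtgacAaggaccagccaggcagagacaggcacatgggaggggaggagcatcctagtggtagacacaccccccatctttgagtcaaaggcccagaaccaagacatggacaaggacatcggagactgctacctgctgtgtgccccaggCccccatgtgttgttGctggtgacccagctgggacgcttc
Gimap5, chr6:48752644-48752863, plus strand: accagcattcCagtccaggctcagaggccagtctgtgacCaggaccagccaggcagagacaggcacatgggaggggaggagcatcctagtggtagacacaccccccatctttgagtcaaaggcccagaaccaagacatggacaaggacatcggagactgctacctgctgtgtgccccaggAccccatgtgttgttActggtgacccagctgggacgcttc
Of all 50-base stretches in the annotated transcripts of Gimap3, 8.15% also occurred in transcripts of another gene, and the share was 6.84% for Gimap5. The share was 5.94% for Gimap1 and 1.39% for Gimap7, mostly through Gm28053, an annotated read-through gene whose transcripts include exons of its neighbours. It was 0.0565% for Gimap6 and 0 for Gimap4, Gimap8 and Gimap9. Without Gm28053 the share was 8.15% for Gimap3, 4.53% for Gimap5 and 1.16% for Gimap1. Among the members only Gimap3 and Gimap5 shared such stretches with each other, so the split of reads between members is least certain for this pair. Reads can also be shared with Gm28053 for Gimap1, Gimap3, Gimap5 and Gimap7.

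In Myc WT LZ B cells all 8 genes were detected in all 4 libraries. Levels are given as TPM, transcript abundances scaled for transcript length and for the total of each library, which can be compared between genes. Gimap6 (90.6 ± 14.7 TPM, SD, n = 4), Gimap4 (89.6 ± 8.26 TPM) and Gimap1 (88.3 ± 14.03 TPM) formed the upper group, and their ranges overlapped. Gimap7 (31.3 ± 5.09 TPM), Gimap9 (27.6 ± 8.81 TPM) and Gimap3 (25.6 ± 3.46 TPM) followed, also with overlapping ranges. Gimap8 (18.7 ± 2.30 TPM) and Gimap5 (14.7 ± 2.56 TPM) were lowest and overlapped each other. The ranges of Gimap1 and Gimap7 and those of Gimap3 and Gimap8 did not overlap. Ranked by mean TPM among 21772 protein-coding genes, Gimap6 was 957th and Gimap5 was 5189th.

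**Figure D1:**
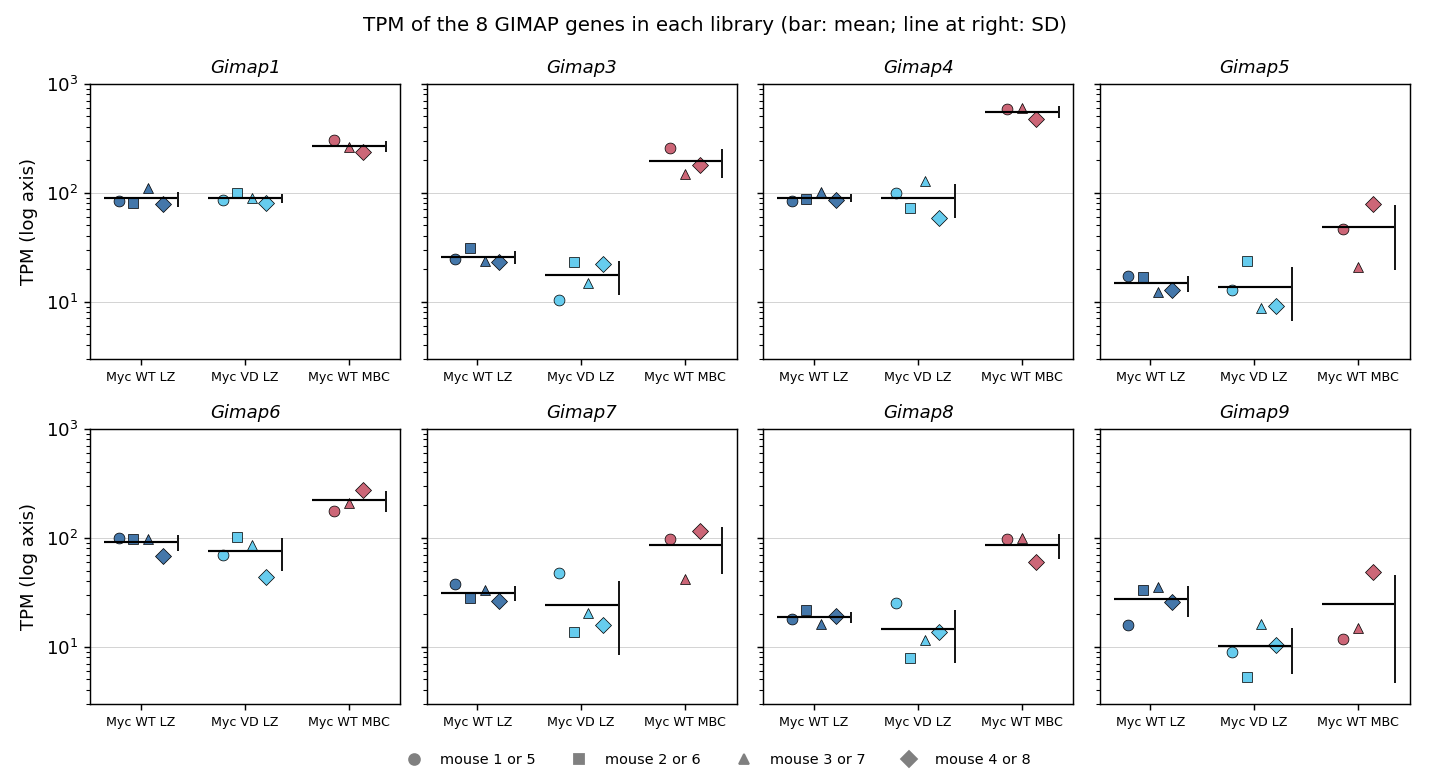
TPM (log axis) of each GIMAP gene in the 4 Myc WT LZ, 4 Myc VD LZ and 3 Myc WT MBC libraries, 1 point per library, with the mean as a horizontal bar and the SD as a vertical line. The MBC points lie above all Myc WT LZ points for every gene but Gimap9.

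The first comparison asked how GIMAP expression differed between MBCs and the LZ B cells of Myc WT mice. The MBC libraries held more GIMAP mRNA: the 8 genes summed to 1575, 1389 and 1469 TPM in MBCs of mice 1, 3 and 4, against 340.3 to 429 TPM in the 4 Myc WT LZ libraries. The means were 1478 ± 93.2 TPM (SD, n = 3) and 386 ± 36.8 TPM (n = 4), a ratio of 3.82. In bulk RNA, fewer cells of a type and less RNA per cell cannot be told apart.

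Gimap3 and Gimap4 changed most. Gimap4, a GTPase that has been linked to lymphocyte death and cytokine secretion, stood at 585, 595 and 477 TPM in MBCs of mice 1, 3 and 4 and at 83.5, 87.7, 102 and 85.5 TPM in LZ B cells of mice 1 to 4. Every MBC library was above every LZ library, with a 6.16-fold ratio of the means. Gimap3, the close relative of Gimap5, stood at 258, 147 and 178 TPM in MBCs and at 24.6, 30.7, 23.7 and 23.3 TPM in LZ B cells, a 7.60-fold ratio with no overlap. The test was limma on the log2 of TPM + 1, on which changes of weakly expressed genes look smaller than they are. The difference was 2.61 ± 0.20 (SE) for Gimap4 (limma, adjusted p = 0.000452) and 2.85 ± 0.28 for Gimap3 (adjusted p = 0.00159).

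Gimap8, Gimap1 and Gimap6 also rose. Gimap8, the member with repeated GTPase domains, was at 97.3, 99.8 and 60.4 TPM in MBCs and at 17.8, 21.7, 16.2 and 19.0 TPM in LZ B cells, and the log2 difference was 2.11 ± 0.30 (limma, adjusted p = 0.00562). Gimap1, which mature lymphocytes need for survival, was at 301, 260.3 and 238 TPM in MBCs and at 84.2, 80.8, 109 and 79.0 TPM in LZ B cells, and the log2 difference was 1.59 ± 0.22 (limma, adjusted p = 0.00512). Neither gene had overlapping groups. Gimap6, whose protein has been found with GABARAP-type autophagy proteins, was at 176.5, 210.1 and 273 TPM in MBCs and at 99.3, 97.3, 97.3 and 68.6 TPM in LZ B cells, and the log2 difference was 1.26 ± 0.25 (limma, adjusted p = 0.0186). The groups did not overlap, but the call was lost when the LZ library of mouse 1, 2 or 3 was left out (adjusted p = 0.0548, 0.0619 and 0.0580) and without a trend in the variance (adjusted p = 0.0615). With the mouse as a block the adjusted p was 0.0512 for Gimap8, 0.0524 for Gimap1 and 0.117 for Gimap6 (limma), so that none of the 3 genes was called in that fit.

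Gimap5 and Gimap7 did not pass the threshold. Gimap5, which acts in T cell survival, was at 46.3, 20.6 and 78.6 TPM in MBCs of mice 1, 3 and 4 and at 17.0, 16.8, 12.3 and 12.6 TPM in LZ B cells, a log2 difference of 1.48 ± 0.46 (limma, adjusted p = 0.0773). Gimap7, a GTPase that works as a dimer, was at 98.2, 41.4 and 116 TPM in MBCs and at 37.7, 28.2, 33.1 and 26.5 TPM in LZ B cells, a log2 difference of 1.302 ± 0.39 (limma, adjusted p = 0.0681). Both had every MBC library above every LZ library, with mouse 3 the lowest and mouse 4 the highest MBC library. Without the MBC library of mouse 3 the log2 difference was 1.98 for Gimap5 and 1.75 for Gimap7 (limma, adjusted p = 0.0102 and 0.00722). Without that of mouse 4 it was 1.04 and 1.02 (limma, adjusted p = 0.116 and 0.112).

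Gimap9 differed from the rest of the family in that its groups overlapped. It was at 11.7, 14.8 and 48.2 TPM in MBCs of mice 1, 3 and 4 and at 15.9, 33.1, 35.6 and 25.9 TPM in LZ B cells of mice 1 to 4. The log2 difference was -0.36 ± 0.52 (limma, adjusted p = 0.703), with a 95% interval from -1.55 to 0.83, and it was 0.02 without the MBC library of mouse 1 and -0.96 without that of mouse 4.

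Of the 8 members, 5 were called higher in MBCs and 0 lower at an adjusted p under 0.05, where 4.17% of the 13245 genes tested were called higher and 5.04% lower. Without any 1 of the Myc WT LZ libraries 4 or 5 members were called higher, where 1.56% to 1.92% of all genes were. Without adjustment, 7 members had a p under 0.05, all of them higher, as did 11.3% of the genes tested. For 7 of 8 members every MBC library was above every Myc WT LZ library, as for 11.8% of the genes tested. The median log2 difference was 1.53 over the members and -0.14 over all genes. For each of these 7 genes the exact permutation test (two-sided) gave p = 0.0286, the smallest these group sizes allow, and for Gimap9 it gave p = 0.543. With the mouse as a block, 2 members were called higher, Gimap3 and Gimap4, where 0.989% of all genes were. That fit used the 3 mice with both populations.

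Within mice, the summed GIMAP level was 4.14-fold higher in MBCs than in LZ B cells of mouse 1, 3.24-fold higher in mouse 3 and 4.32-fold higher in mouse 4. Gimap3 had the largest ratio in each mouse, at 10.5, 6.19 and 7.64. Gimap9 had a ratio of 0.734 in mouse 1 and 0.415 in mouse 3 but 1.86 in mouse 4. Gimap5, Gimap6 and Gimap7 also had their largest ratio in mouse 4, at 6.21, 3.99 and 4.40, whereas Gimap8 had its smallest there, at 3.19. The 3 MBC libraries thus shared the higher total and the order of Gimap4 over Gimap1, while Gimap5, Gimap7 and Gimap9 varied most between mice. In MBCs the coefficient of variation was 11.9% for Gimap4 and 12.0% for Gimap1, from 22.4% to 29.6% for Gimap6, Gimap8 and Gimap3, and 45.8% for Gimap7, 59.9% for Gimap5 and 81.4% for Gimap9.

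**Figure D2:**
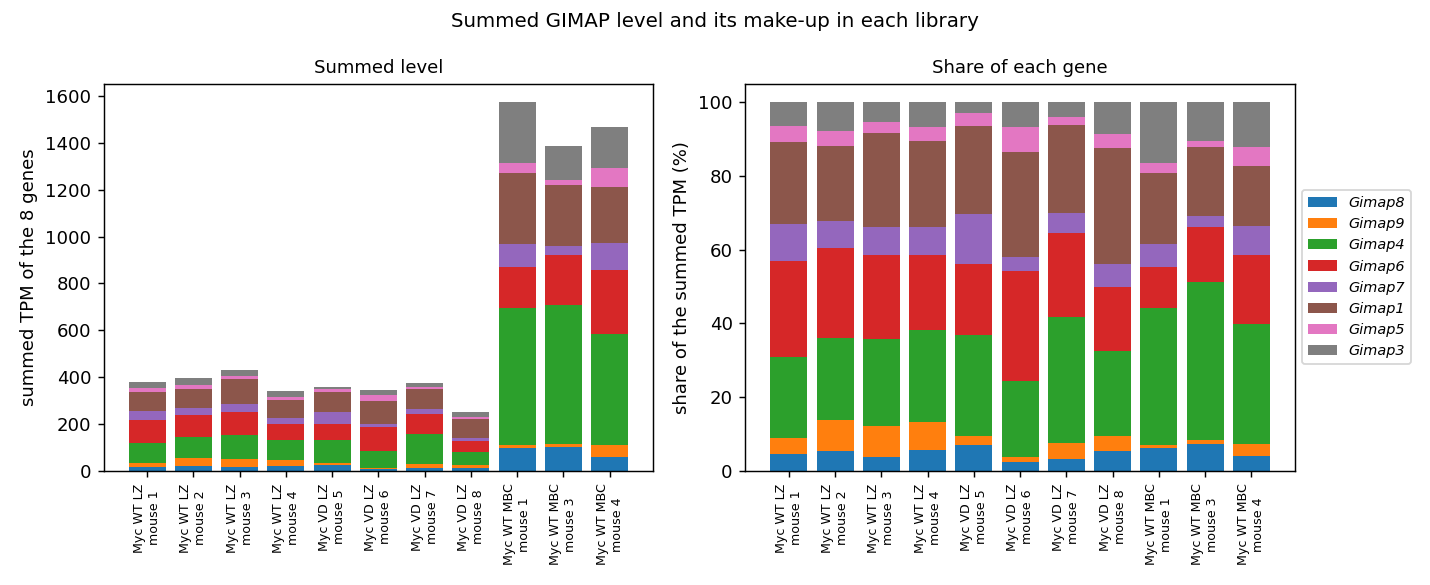
Summed TPM of the 8 GIMAP genes in each library (left) and the share of each gene in that sum (right, in percent), stacked in chromosome order. The MBC libraries sum to 1389 to 1575 TPM, the LZ libraries to 252 to 429 TPM, and the share of Gimap4 is larger in MBCs of mice 1 and 3 than in any LZ library.

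The make-up of the family mRNA also differed. Gimap4 made up 23.2% ± 1.48 (SD, n = 4) of the summed GIMAP TPM in Myc WT LZ B cells and 37.5% ± 5.21 (n = 3) in MBCs. The share of Gimap3 was 6.65% ± 0.919 and 13.03% ± 3.02, with separate ranges. Gimap6, although its TPM rose, had a share of 23.4% ± 2.57 in LZ B cells and of 14.98% ± 3.70 in MBCs, and Gimap1 one of 22.8% ± 2.10 and 18.0% ± 1.59. The share of Gimap9 was 7.12% ± 1.98 in Myc WT LZ B cells, with a lowest value of 4.19%, and 1.70% ± 1.38 in MBCs, with a highest value of 3.28%. Among protein-coding genes, Gimap4 ranked 966th by mean TPM in Myc WT LZ B cells and 134th in MBCs, Gimap3 3530th and 411th, and Gimap9 3312th and 3851st.

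**Figure D3:**
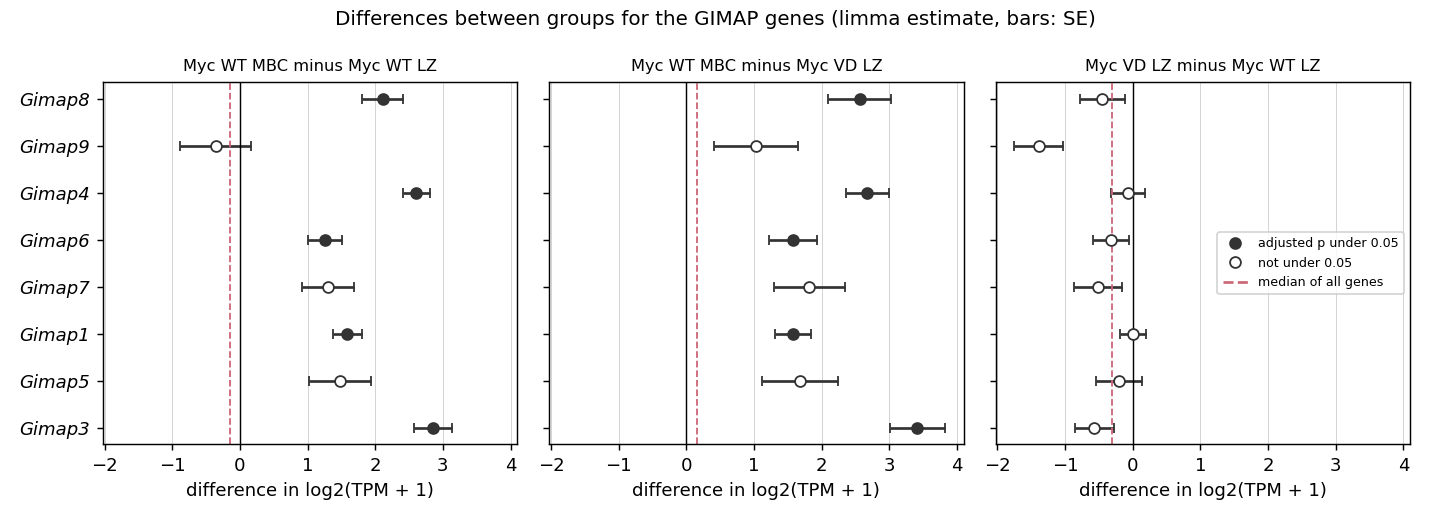
Difference in log2(TPM + 1) for each GIMAP gene in the 3 comparisons, in chromosome order from Gimap8 at the top, as the limma estimate with its SE; filled points have an adjusted p under 0.05 and the dashed line is the median of all genes. In all, 5 points are filled in each comparison with MBCs and none in the comparison of genotypes.

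The second comparison asked whether the loss of MIZ1 binding moved GIMAP levels in LZ B cells. No member was called: 0 of 8 were higher and 0 of 8 lower in Myc VD than in Myc WT LZ B cells by limma, where 0.00777% of the 12869 genes tested were called higher and 0.0389% lower, 6 genes in all. Without the Myc VD library of mouse 5, 254 of 12846 genes were called and still 0 members, and without any other single library 0 to 6 genes were called (limma). Without adjustment, 1 of 8 had a p under 0.05, Gimap9, which was lower, as were 15.7% of the genes tested at that threshold. The summed level was 359, 347, 375 and 252 TPM in mice 5 to 8, with a mean of 333 ± 55.3 TPM (SD, n = 4), and this range overlapped that of Myc WT. The median log2 difference was -0.38 over the members and -0.31 over all genes, so that the members lay near the genes at large. The share of TPM assigned to ribosomal RNA moved with genotype, at 44.1% to 61.3% in the Myc VD and 35.7% to 44.5% in the Myc WT LZ libraries, and its part in these differences was not tested. With ribosomal RNA removed before scaling, the median was -0.05 over all genes and -0.08 over the members.

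Gimap9 and Gimap3 were the members with the lowest values in Myc VD relative to Myc WT. Gimap9 was at 8.92, 5.26, 16.2 and 10.4 TPM in LZ B cells of mice 5 to 8, against 15.9 to 35.6 TPM in Myc WT, and the groups overlapped only through the Myc VD library of mouse 7 and the Myc WT library of mouse 1. Its log2 difference was -1.39 ± 0.36 (limma, unadjusted p = 0.00251, adjusted p = 0.125), and the exact permutation test gave p = 0.0571. Gimap3 was at 10.3, 23.3, 14.9 and 22.1 TPM in Myc VD and at 23.3 to 30.7 TPM in Myc WT, so that every Myc VD library was below every Myc WT library, the closest pair being 23.25 and 23.30 TPM. This was the case for 1 of 8 members and for 9.16% of the genes tested. The log2 difference of Gimap3 was -0.57 ± 0.29 (limma, adjusted p = 0.349), and the exact permutation p was 0.0286, the smallest these group sizes allow. It was -0.35 without the Myc VD library of mouse 5, -0.23 under median-ratio scaling and -0.27 with ribosomal RNA removed. Under these scalings the difference of Gimap9 was -1.06 and -1.13.

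The coefficient of variation was larger in Myc VD than in Myc WT libraries for every member but Gimap1, that is for 7 of 8, and for 82.4% of all genes tested. Gimap7 ranged from 13.6 to 47.8 TPM over the 4 Myc VD libraries and from 26.5 to 37.7 TPM over the 4 Myc WT libraries, and Gimap8 from 7.92 to 25.0 and from 16.2 to 21.7 TPM. Their log2 differences were -0.52 and -0.45 (limma, adjusted p = 0.488 and 0.518). Without the Myc VD library of mouse 5 they were -0.89 and -0.73 (limma, adjusted p = 0.0822 and 0.150). Gimap1 stood at 88.4 ± 7.93 TPM in Myc VD (SD, n = 4) and at 88.3 ± 14.03 TPM in Myc WT, a log2 difference of 0.01 with a 95% interval from -0.41 to 0.43, and it was 0.35 under median-ratio scaling and 0.32 with ribosomal RNA removed. The log2 difference of Gimap4 was -0.07 with an interval from -0.62 to 0.49, and it was 0.28 under median-ratio scaling and 0.25 with ribosomal RNA removed. The intervals of Gimap5 (-0.93 to 0.53) and Gimap6 (-0.91 to 0.27) included 0, and both estimates were above 0 under median-ratio scaling (0.12 and 0.02), which moved the median of all genes to -0.01.

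The third comparison set MBCs against Myc VD LZ B cells. It shares the MBC libraries with the first comparison and here both genotype and cell population differ, so it is given only beside the first. Of the 8 members, 5 were called higher in MBCs and 0 lower, where 2.52% of the 13131 genes tested were called higher and 1.36% lower, and for 5 of 8 every MBC library was above every Myc VD library, as for 12.5% of the genes tested. The log2 difference was 3.41 for Gimap3, 2.67 for Gimap4, 2.56 for Gimap8, 1.58 for Gimap1 and 1.58 for Gimap6 (limma, adjusted p = 0.00168, 0.00168, 0.0129, 0.00930 and 0.0325). Gimap5 (1.68, adjusted p = 0.126), Gimap7 (1.82, adjusted p = 0.0859) and Gimap9 (1.03, adjusted p = 0.400) did not pass the threshold in limma and their groups overlapped. The difference of Gimap9 was 0.43 without the MBC library of mouse 4 and 1.41 without that of mouse 1. The median was 1.75 over the members and 0.16 over all genes. Leaving out 1 library at a time gave 4 to 6 called members, and the fit without a trend in the variance gave 3. All 3 groups in 1 fit gave 7, where 7.73% of all genes were called higher. Gimap5 and Gimap7 were called in that fit (limma, adjusted p = 0.0351 and 0.0212). They were also called without the MBC library of mouse 3 (limma, adjusted p = 0.0463 and 0.0383). The call of Gimap6 was lost in 9 of 13 alternatives, 5 of them fits without 1 library (limma, adjusted p = 0.0540 to 0.137), and that of Gimap1 without a variance trend (adjusted p = 0.0929).

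**Figure D4:**
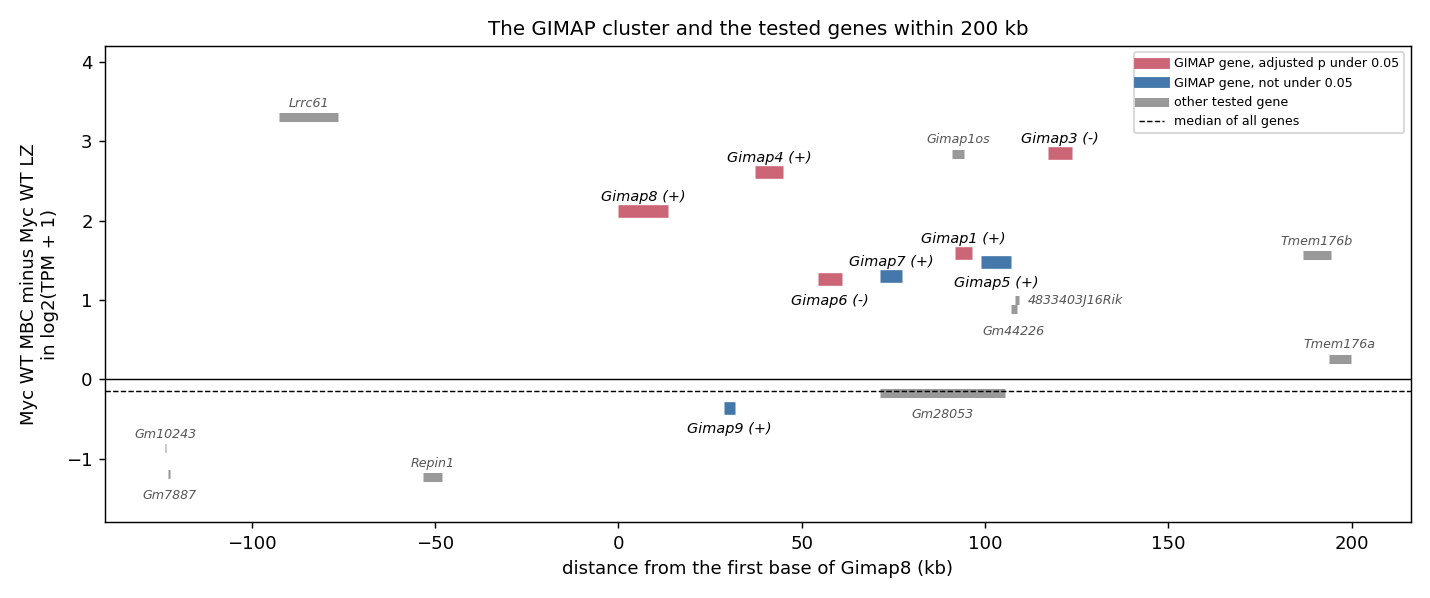
Position of the GIMAP genes and of the other tested genes within 200 kb, as distance from the first base of Gimap8 in kb, against the difference in log2(TPM + 1) between Myc WT MBC and Myc WT LZ; signs give the strand. Gimap9, at -0.36, lies between Gimap8 at 2.11 and Gimap4 at 2.61.

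Along the chromosome the called members were not adjacent as one block: Gimap9 lay between Gimap8 and Gimap4, and Gimap7 and Gimap5 lay on either side of Gimap1. Over all genes tested, 4.17% were called higher in MBCs than in Myc WT LZ B cells and 5.04% lower. Inside the cluster 5 other annotated genes were listed, of which 4 were tested and 1 was called in this comparison. This was Gimap1os, a noncoding transcript on the strand opposite to Gimap1 that overlaps its start. It was at 86.2, 15.3 and 34.0 TPM in MBCs and at 2.55 to 5.14 TPM in Myc WT LZ B cells, a log2 difference of 2.84 ± 0.59 (limma, adjusted p = 0.0218). Gm28053, the read-through gene that spans Gimap7 to Gimap5, was at 8.81, 0 and 4.70 TPM in MBCs and at 1.68 to 6.35 TPM in Myc WT LZ B cells (log2 difference -0.17 ± 0.81). The noncoding gene 4833403J16Rik, which lies between Gimap5 and Gimap3 and was picked after its values were seen, was at 8.03, 22.8 and 9.71 TPM in MBCs, 3.30 to 11.6 TPM in Myc WT LZ and 0 to 1.63 TPM in Myc VD LZ B cells. It was called higher in MBCs than in Myc VD LZ B cells (2.92 ± 0.72, limma, adjusted p = 0.0485), as was Gimap1os (3.36 ± 0.68, adjusted p = 0.0213). Every Myc VD library was below every Myc WT LZ library for 4833403J16Rik, as for 9.16% of the genes tested. The difference between genotypes was not called (-1.93 ± 0.49, limma, adjusted p = 0.124). In the 200 kb on either side, 27 further genes were annotated, 11 of them at 0 in every library, and 6 were tested. Lrrc61, a leucine-rich repeat gene, was the only one of the 6 called, at 127, 308 and 39.3 TPM in MBCs against 4.80 to 17.5 TPM in Myc WT LZ B cells (3.30 ± 0.68, limma, adjusted p = 0.0218). The next in size were Tmem176b (1.56 ± 0.93) and Repin1 (-1.24 ± 0.61), which did not pass (adjusted p = 0.317 and 0.233 in limma).

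The cell labels were compared with marker genes. In MBCs relative to Myc WT LZ B cells, 6 of 8 germinal center markers fell, among them Bcl6 and Mef2b. Of 6 memory markers, 4 rose, namely Ccr6, Cd80 and the sorted markers Cd38 and Pdcd1lg2 (CD273). The other memory markers, Nt5e and Zbtb32, were not called, with log2 differences of -0.31 and -0.11 (limma, adjusted p = 0.642 and 0.940). Of 13 tested genes of naive and resting lymphocytes, 10 rose and 0 fell. Over all genes tested in this comparison, 4.17% were called higher and 5.04% lower. Klf2, a transcription factor of resting lymphocytes, was at 59.0, 43.3 and 65.0 TPM in MBCs of mice 1, 3 and 4 and at 0.910 to 2.59 TPM in Myc WT LZ B cells. Ighd, which encodes the heavy chain of IgD, was among the 10, at 156, 59.3 and 90.6 TPM in MBCs and at 19.6 to 31.9 TPM in Myc WT LZ B cells (limma, adjusted p = 0.0177), although both populations were sorted as negative for IgD. The study's methods describe the MBC gate as IgD negative for RNA-seq and as IgD low in the section on flow cytometry. In Myc VD relative to Myc WT LZ B cells 0 genes of these 3 lists were called by limma. Of all genes tested there, 0.00777% were called higher and 0.0389% lower. The GIMAP rise in MBCs thus went with a rise of genes of resting lymphocytes, and whether cells of another resting population contributed was not tested.

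Because GIMAP genes are abundant in T cells, T cell markers were read in the same libraries. Of 15 T cell markers, all 15 were at 0 in MBCs of mouse 3, and in MBCs of mouse 1 all but Lck, a kinase also found in the LZ libraries at 24.1 to 66.5 TPM. These 2 libraries also had the fewest genes above 0, at 11527 for mouse 3 and 12983 for mouse 1, against 16040 in MBCs of mouse 4 and 13169 to 19537 in the LZ libraries, and a 0 can be a failed estimate. In MBCs of mouse 4, 14 of 15 were above 0, and without Lck they summed to 47.9 TPM, against 3.31 to 20.6 TPM in the 8 LZ libraries. In MBCs against Myc WT LZ B cells 5 of the 15 were tested, 0 rose and 1 fell (Lat, by limma). Of all genes tested, 4.17% were called higher and 5.04% lower. Cd3e, Trac and Trbc2 were listed at 0 in MBCs of mice 1 and 3, where Gimap4 was at 585 and 595 TPM, and at 5.37, 17.7 and 7.93 TPM in MBCs of mouse 4, where Gimap4 was at 477 TPM. Gimap9, Gimap5, Gimap6 and Gimap7 had their highest MBC level in that library of mouse 4, and the part of T cell RNA in the levels of any member was not tested. Without that library, 5 members were called higher, where 7.06% of all genes tested were, Gimap9 had a log2 difference of -0.96 and the members had a median of 1.38.

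Markers of other cells were also read. The MBC library of mouse 4 held the most myeloid marker RNA (191 TPM over 8 genes, of which Lyz2 was 136, against 43.4 and 43.2 TPM in mice 1 and 3 and 0 to 12.6 TPM in the LZ libraries), and Csf1r and Itgam were called higher in MBCs. The MBC library of mouse 3 held 6713 TPM of erythroid markers, against 7.60 to 409.6 TPM in all other libraries. Of 8 endothelial markers Pecam1 was the only one tested and rose in MBCs, and the other 7 summed to at most 3.73 TPM in any library. Of 6 natural killer cell markers 0 were tested in the first comparison, and they summed to at most 13.6 TPM. Of 6 plasma cell markers 0 rose and 1 fell (Mzb1), where 4.17% of all genes tested were called higher and 5.04% lower. Without the MBC library of mouse 3, 7 of 8 members were called higher, where 6.78% of all genes tested were.

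Genes whose proteins are reported to bind or act with GIMAP proteins were read as a list of 13, covering BCL2-type survival and death genes, GABARAP and LC3 autophagy genes and the GSK3 kinases. Over all genes tested, 4.17% were called higher in MBCs than in Myc WT LZ B cells and 5.04% lower. Of the 13 tested, 1 rose in MBCs and 0 fell, and the median log2 difference was -0.25, against -0.14 over all genes. The gene that rose was Bcl2, which blocks cell death, at 45.2, 95.4 and 47.4 TPM in MBCs and at 0.990 to 1.83 TPM in Myc WT LZ B cells (log2 difference 4.65, limma, adjusted p = 0.00149). Of another set of immune GTPases, the interferon-inducible GBP and IRG families with the very large GTPase Gvin1, 15 of 20 were tested. In MBCs 4 of them rose (Gbp5, Gbp7, Gbp8 and Gvin1) and 0 fell, with a median of 0.96, against -0.14 over all genes.

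The genes most like the family across the 11 libraries were found by the Pearson correlation of log2(TPM + 1) with the mean of the 8 members, over 10117 protein-coding genes. The 6 highest were Add3 (r = 0.985), Snn (0.983), Sla (0.983), Rbm43 (0.979), Arhgef3 (0.978) and Cmah (0.977). The libraries fall into MBC and LZ groups, and the coefficients mainly describe that separation. Add3, a membrane skeleton gene, was at 94.9 to 157 TPM in MBCs, 30.7 to 47.3 TPM in Myc WT LZ and 19.6 to 33.6 TPM in Myc VD LZ B cells. Cmah, which encodes a sialic acid hydroxylase, was at 133 to 188, 7.78 to 10.6 and 3.69 to 12.5 TPM.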

How the data were processed

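RNA of sorted B cells was converted to cDNA with a NuGEN kit and sequenced on an Illumina HiSeq. Per the labels and the study's methods, the authors aligned reads with STAR 2.5.2a and estimated strand-specific expression with RSEM 1.3.0 on GRCm38, and deposited 1 table of TPM values with 2 decimals. The submitters' processing notes also name DESeq2 1.18.1, whose counts were not used here. TPM keep no read depth, so depth and its counting error are unknown, and a 0 can be a failed estimate. TPM are relative, so a group of abundant RNAs lowers all other genes of a library.

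Of 48795 genes, 48435 had a symbol in GENCODE M21. Genes whose mean over the compared libraries reached 1 TPM were fitted on log2(TPM + 1) with limma 3.58.1 in R 4.3.3 (empirical Bayes with a variance trend, 2 groups per fit), with Benjamini-Hochberg adjustment over all genes tested and a threshold of 0.05. Single genes were also tested by exact two-sided permutation of the difference of mean log2 values (scipy 1.17.1). The fit was also run on simulated data with known changes and the same spread in both groups. The only condition set there was on the mean estimated change, not on the calls. The members and all lists were chosen with earlier results of these data known. Named were the 8 members and other genes with a GIMAP name or inside the cluster that were called in MBCs against Myc WT LZ. Up to 4 neighbours within 200 kb were named by call and then size. The 6 genes of highest correlation and list genes past the threshold or highest in level were named too. Added to these were Gm28053 as the read-through gene, 4833403J16Rik after its values were seen, and the memory markers not called.

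MBC and LZ libraries of mice 1, 3 and 4 come from the same animals, so these numbers pair the samples. The correlations of their deviations from the group means were 0.00507, 0.0115 and -0.0470. P-values measure the spread between mice of a group. The alternatives were a pseudocount of 0.1 TPM, no filter, median-ratio scaling, removal of ribosomal RNA, all 3 groups in 1 fit, no variance trend, the mouse as a block and leaving out each library.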

Additional observations from a re-analysis of the deposited data

Results flagged for a closer look

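Within the 4 Myc WT LZ libraries, 2 members had a library whose gap to the others was large for the range of the group by Dixon's ratio. Gimap3 was at 30.7 TPM in mouse 2 and at 23.3 to 24.6 TPM in the other 3 mice, a ratio of 0.831, just past the critical value. Gimap6 was at 68.6 TPM in mouse 4 and at 97.3 to 99.3 TPM in the other 3 mice, a ratio of 0.934. In all, 18 groups of 4 libraries were examined, and chance marks about 1 in 20 groups.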

How the results depend on the processing

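In MBCs against Myc WT LZ B cells, 4 to 7 members were called higher when 1 library was left out, and 2 when mice were fitted as a replicate block, where 0.989% of all genes were; that fit drops mouse 2 and leaves fewer degrees of freedom. In that fit Gimap1, Gimap6 and Gimap8 lost their calls, and the call of no other member changed. Without the LZ library of mouse 2 alone, Gimap6 lost its call too (limma, adjusted p = 0.0619). Gimap1 and Gimap8 kept theirs without that library (limma, adjusted p = 0.0274 and 0.0246). Against Myc VD LZ B cells, 3 members were called without a variance trend, and the cause was not tested. The other 13 of 14 and 12 of 13 alternatives for these counts of higher members stayed within 1.5 times the main count, and no member was called lower in any of them. Between genotypes 0 members were called by limma in all 14 alternatives. Gimap6 kept its call in 9 of 14 alternatives in the first of these comparisons and in 4 of 13 in the other. None of the log2 differences that changed sign was called. Gimap9 in MBCs against Myc WT LZ ran from -0.96 to 0.020 over the fits that left out 1 library. In Myc VD against Myc WT LZ B cells these fits ran from -0.043 to 0.12 for Gimap1 and from -0.26 to 0.12 for Gimap4. Median-ratio scaling turned Gimap4 to 0.28, Gimap5 to 0.12 and Gimap6 to 0.022, and removal of ribosomal RNA turned Gimap4 to 0.25 and Gimap5 to 0.090. Median-ratio scaling moved the median of all genes from -0.31 to -0.01 in that comparison and from 0.16 to -0.11 in MBCs against Myc VD. In MBCs against Myc WT LZ it called 7 members. Read depth was unknown.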
